A study of Homo sapiens with 8 samples.

Results

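Of the 2120 rows of the expression table whose name is LINC followed by 5 digits, 372 (17.5%) had a mean normalised value of 10 or more over the 8 libraries. These 372 long intergenic non-coding RNA genes, called LINC genes here, are described out of 60240 genes listed and 17534 with a mean of at least 10. A further 1104 LINC rows were at 0 in every library. At the edge of the rule, LINC01537, LINC02580 and LINC02361 were inside with means of 10.1 each, while LINC01972 (9.96), LINC01978 (9.89) and LINC01202 (9.88) were outside.

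All libraries came from wild-type HL-60, 1 human promyelocytic leukaemia cell line. The 4 groups of 2 libraries were decitabine with RG3039 (the combination), decitabine, RG3039 and the solvent DMSO, and RNA was collected at 72 h. Decitabine is a cytidine analogue that enters DNA and traps DNA methyltransferases, and it was given at 100 nM on each of the days 0, 1 and 2. RG3039 blocks DcpS, a hydrolase of the cap fragments that remain when mRNA is degraded, and it was given at 2 µM on day 0 only. Wells were seeded in duplicate and nothing states that they came from separate cultures, so p-values measure the spread between these libraries. The comparisons ask which RNAs differ between treatments.

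LINC genes are transcribed by RNA polymerase II, usually spliced and polyadenylated, and carry no long open reading frame. The LINC symbol is a placeholder given by position when no function is known, so most of these genes have no described role. As a class they are made at low levels and in few tissues. Methylation of promoter DNA is one of the marks that keeps silent genes off, and decitabine lowers it as cells divide.

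The libraries were 3′ RNA-seq, which counts 1 tag near the end of each polyadenylated transcript. Estimated depth ran from 20711800 to 40948100 reads per library, and 1 read was worth between 0.702 and 1.51 normalised units. The LINC genes were low. Their median of mean values was 39.7, against 231 over all genes tested. Only 85 reached a mean of 100, 4 reached 1000, and 208 lay under 50. A value above 0 was listed for 364 to 371 of the 372 in each library. In GENCODE 29 on GRCh38, 371 of the 372 identifiers were found and 330 carried the same name. The annotation called 313 of them lincRNA, 26 processed transcripts, 14 antisense, 8 transcribed unprocessed pseudogenes and 4 protein coding. The median gene spanned 21744 bases with 2656 exonic bases. On the same strand 84 overlapped another gene and on the opposite strand 168 did. No source used here tells whether reads were counted by strand, so the levels of those genes are uncertain.

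As a class the LINC genes took a larger share of the signal in every drug-treated library than in either DMSO library. Their summed value was 0.156% and 0.149% of the library total with the combination, 0.167% and 0.129% with decitabine, 0.127% and 0.130% with RG3039, against 0.118% and 0.102% with DMSO. The decitabine libraries lay far apart and enclosed the combination. Genes with antisense names had the same order over DMSO, at 0.273% and 0.253% with the combination, 0.244% and 0.207% with decitabine, 0.237% and 0.241% with RG3039, against 0.196% and 0.175% with DMSO. So had those with divergent names, at 0.0257% to 0.0419% in the treated libraries, against 0.0242% and 0.0204% with DMSO. The exact permutation test of 2 libraries against 2 cannot give a two-sided p under 0.333, so this share was not tested further. Leaving out the 47 LINC genes called in any comparison, the shares were 0.113% and 0.107% with the combination, 0.128% and 0.0954% with decitabine, 0.0983% and 0.09996% with RG3039, against 0.0943% and 0.0804% with DMSO. The order over DMSO thus remained in all 6 treated libraries, by a small margin for decitabine replicate 2. Genes could enter the class through a treated group, because the mean over all 8 libraries chose them. For LINC genes with a mean of at least 10 in each of the 4 groups, shares were 0.147% and 0.140% with the combination. They were 0.161% and 0.124% with decitabine and 0.123% and 0.126% with RG3039, against 0.114% and 0.0997% with DMSO. The 10 LINC genes with the highest means held 27.3% of the summed value. LINC00926, known from B cells, had the highest mean, with 2005 and 1958 with the combination, 2143 and 2177 with decitabine, 1316 and 1601 with RG3039, against 1546 and 1589 with DMSO, and it was called in no comparison with DMSO.

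**Figure D1:**
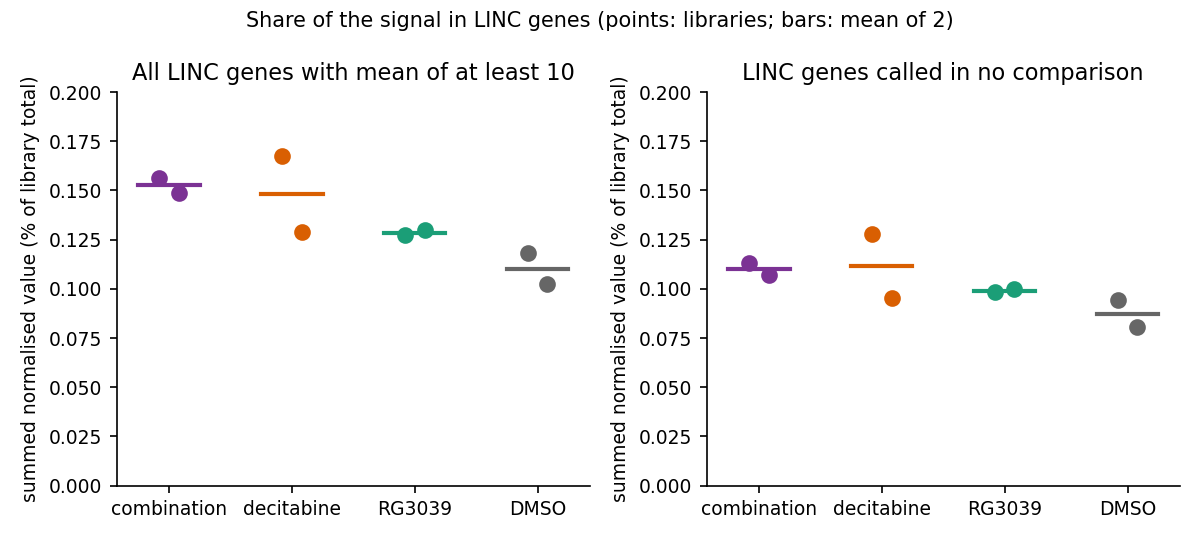
Summed normalised value of LINC genes as a percentage of the library total (y axis, from 0), by treatment (x axis), for all 372 genes (left) and for those called in no comparison (right). Points are libraries and bars are means of 2; on the left the DMSO libraries, at 0.118% and 0.102%, lie below all 6 treated ones.

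Fold changes are given on the log2 scale of (normalised value + 1), with the standard error of a model over all 17534 genes in limma, and a gene is called when its Benjamini-Hochberg adjusted p over those genes is under 0.05. This scale understates the change of low genes. Against DMSO the combination gave 42 called LINC genes, 36 higher and 6 lower, which is 11.3% of them, and 24.1% of all genes tested were called (11.4% higher, 12.7% lower). Decitabine gave 5, all higher (1.34%), and the share over all genes was 2.14% (1.74% higher, 0.405% lower). RG3039 gave 11, of which 10 were higher and 1 lower (2.96%), and the share over all genes was 8.12% (4.53% higher, 3.59% lower). No LINC gene was called with RG3039 in limma when only the RG3039 and DMSO libraries were fitted, with 43 at an unadjusted p under 0.05. In the fit of all 4 groups 46 LINC genes were under that limit, beside 3999 of all 17534 genes tested. Each share was below that over all genes, a difference that was not tested, and most calls were of higher values. The libraries of a treatment and of DMSO did not overlap for 192 LINC genes (51.6%) with the combination, 145 (39.0%) with decitabine and 165 (44.4%) with RG3039, beside 62.8%, 46.8% and 51.9% of all genes. Quantile normalisation changed the split for the combination to 27 higher and 9 lower. Of the 42 calls for the combination, 9 held without each of the 8 libraries.

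The median log2 fold change over the 372 was 0.38 with the combination, 0.28 with decitabine and 0.19 with RG3039, beside 0.04, 0.01 and -0.00 over all genes tested. Quantile normalisation lowered the LINC medians to 0.08 for the combination and 0.08 for RG3039 and turned that for decitabine to -0.01. The medians over all genes were then -0.04 for the combination, -0.01 for RG3039 and -0.04 for decitabine. Values above DMSO were estimated for 261 of 372 LINC genes (70.2%) with the combination, 244 (65.6%) with decitabine and 217 (58.3%) with RG3039, beside 52.3%, 50.9% and 49.7% of all genes. In the same order, genes with antisense names gave 61.6%, 60.8% and 53.2%, and those with divergent names 66.2%, 58.8% and 58.8%. MicroRNA and snoRNA host genes gave 51.0%, 51.0% and 45.1%. A shift above DMSO was thus also found outside the LINC genes. Because the mean over all libraries chose the genes, a gene high in a single treatment could enter through that treatment. A group mean under 10 was found for 18 of the 372 in the combination, 28 in decitabine, 48 in RG3039 and 53 in DMSO. Among the 276 with a mean of at least 10 in each of the 4 groups the median was 0.31 with the combination, 0.24 with decitabine and 0.27 with RG3039. These 372 were highest in the combination for 138 genes, in decitabine for 121, in RG3039 for 66 and in DMSO for 47, which is 37.1%, 32.5%, 17.7% and 12.6%, against 30.0%, 21.97%, 18.0% and 30.0% of all genes tested.

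The spread between libraries of 1 group was wide for genes this low. For log2 fold changes the median standard error was 0.60 over LINC genes and 0.32 over all genes tested. The median absolute log2 difference between the libraries of a group was 0.900 for the 99 LINC genes with means of 10 to 20 and 0.264 for the 85 with means of 100 or more. All genes of the same levels gave 0.854 and 0.225. With the combination 5 of the 99 lowest (5.05%) and 20 of the 85 highest (23.5%) were called, beside 5.73% and 31.9% of all genes in those ranges. In the ranges between, 9 of 109 (8.26%) and 8 of 79 (10.1%) were called, beside 11.7% and 16.3%. In each of the 4 ranges the share of LINC genes called was the lower one, which was not tested.

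**Figure D2:**
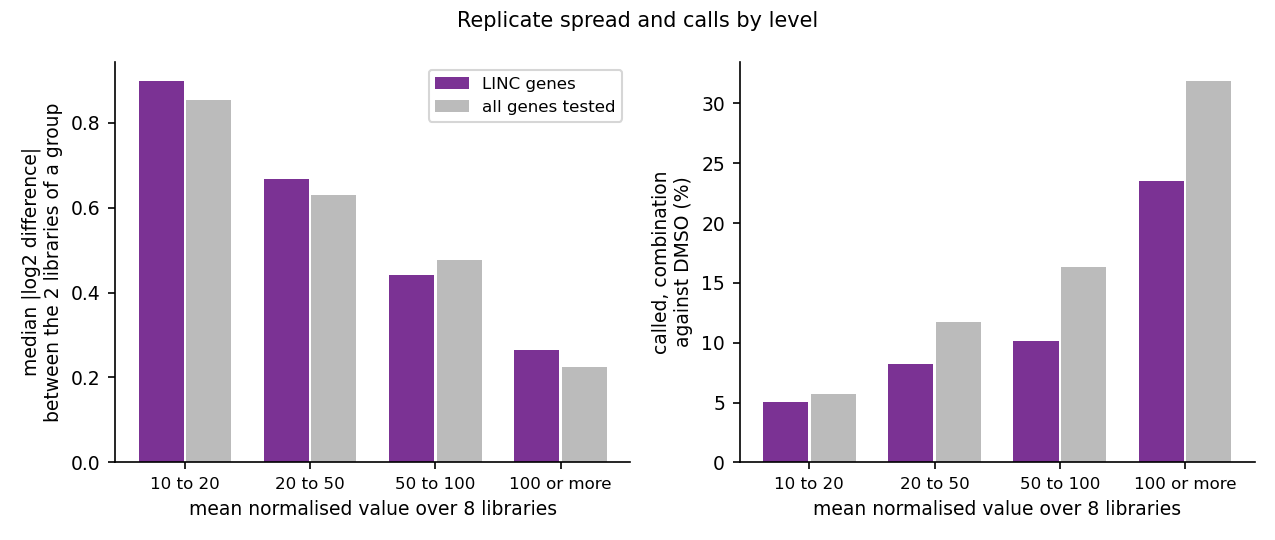
Left, median absolute log2 difference between the 2 libraries of a group; right, percentage of genes called for the combination against DMSO; both by mean normalised value (x axis), for LINC genes (purple) and all genes tested (grey). The spread falls and the share called rises with level in both sets, from 5.05% to 23.5% of LINC genes.

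LINC00599, LINC00649 and LINC01820 had the smallest adjusted p among LINC genes with decitabine. LINC00599 (ENSG00000253230.9, minus strand of chromosome 8, 9900064 to 9905366) is the host transcript of the neuronal microRNA miR-124 and contains MIR124-1. It had normalised values of 1132 and 1222 with the combination, 1153 and 1075 with decitabine, 301 and 393 with RG3039, against 247 and 173 with DMSO. The 4 decitabine-containing libraries lay above all others, and the combination overlapped decitabine alone. It rose with decitabine (2.42 ± 0.23, adjusted p = 0.000888) and with the combination (2.50 ± 0.23, adjusted p = 0.000143), while RG3039 gave 0.73 ± 0.23 (adjusted p = 0.0864). Decitabine exceeded RG3039 by 1.69 ± 0.23 (adjusted p = 0.00394). The combination and decitabine differed by 0.08 ± 0.23, with a 95% interval of -0.43 to 0.59. The decitabine call held without each of the 8 libraries, at adjusted p of at most 0.0230.

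LINC00649 (ENSG00000237945.7, plus strand of chromosome 21, 33915534 to 33977691) overlaps ATP5PO, a subunit gene of the mitochondrial ATP synthase, on the opposite strand. Its values were 118 and 134 with the combination, 282 and 252 with decitabine, 122 and 138 with RG3039, against 31.6 and 34.7 with DMSO. Decitabine was highest, the combination and RG3039 overlapped, and DMSO was lowest without overlap. It rose with decitabine (2.97 ± 0.29, adjusted p = 0.00116), RG3039 (1.94 ± 0.29, adjusted p = 0.00441) and the combination (1.89 ± 0.29, adjusted p = 0.00186). The combination against decitabine gave -1.08 ± 0.29 (adjusted p = 0.0578). The departure from the sum of the single responses, (combination - decitabine) - (RG3039 - DMSO), was -3.02 ± 0.42, with an unadjusted p of 3.6e-05 and an adjusted p of 0.213 in limma. The decitabine and RG3039 calls held without each library, and the RG3039 call was lost with only the 2 groups in the fit (adjusted p = 0.0615). ATP5PO itself was 9286 and 8783 with the combination, 10322 and 10594 with decitabine, 11911 and 11782 with RG3039, against 11788 and 11289 with DMSO, and was called against DMSO in no treatment.

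LINC01820 (ENSG00000228100.2, minus strand of chromosome 2, 46392297 to 46394167, 1 annotated transcript) lies 5594 bases from EPAS1, the gene of the hypoxia factor HIF-2α. It was listed at 165 and 90.9 with the combination and 65.3 and 77.7 with decitabine, against 0 and 0.803 with RG3039 and 0 in both DMSO libraries. The 4 libraries given decitabine carried it and the other 4 held at most about the value of 1 read. It was called with decitabine (adjusted p = 0.00560) and with the combination (adjusted p = 0.000451) in limma; no fold is given against a group at 0. Without decitabine replicate 2 the adjusted p for decitabine was 0.0877, and that call was also lost without decitabine replicate 1, while the call for the combination held without each library. EPAS1 was called in no treatment against DMSO.

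LINC01094 and LINC02645 completed the 5 calls for decitabine. LINC01094 (ENSG00000251442.6, plus strand of chromosome 4, 78645903 to 78682699) lies 35452 bases from ANXA3, an annexin gene, and was described in renal tumours. It had 210.3 and 175 with the combination, 111 and 97.9 with decitabine, 90.8 and 66.2 with RG3039, against 29.9 and 35.5 with DMSO. Each treatment lay above DMSO and the combination lay above both single drugs without overlap. It rose with the combination (2.52 ± 0.34, adjusted p = 0.000945) and with decitabine (1.65 ± 0.34, adjusted p = 0.0447), and RG3039 gave 1.23 ± 0.34 (adjusted p = 0.0602). LINC02645 (ENSG00000234170.6, chromosome 10, 2446253 to 2447352) had 28.1 and 23.1 with the combination, 69.8 and 32.4 with decitabine, 36.3 and 38.9 with RG3039, against 5.06 and 6.69 with DMSO. It rose with decitabine (2.83 ± 0.59, adjusted p = 0.0450), RG3039 (2.50 ± 0.59, adjusted p = 0.0328) and the combination (1.96 ± 0.59, adjusted p = 0.0398, and up to 0.172 without a library). The decitabine calls of LINC01094 and LINC02645 were lost without any 1 of the 8 libraries, with limma adjusted p up to 0.187 and 0.223, both without decitabine replicate 1. The RG3039 call of LINC02645 was lost at adjusted p = 0.147 without RG3039 replicate 2, and also without any other library of RG3039, DMSO or the combination.

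**Figure D3:**
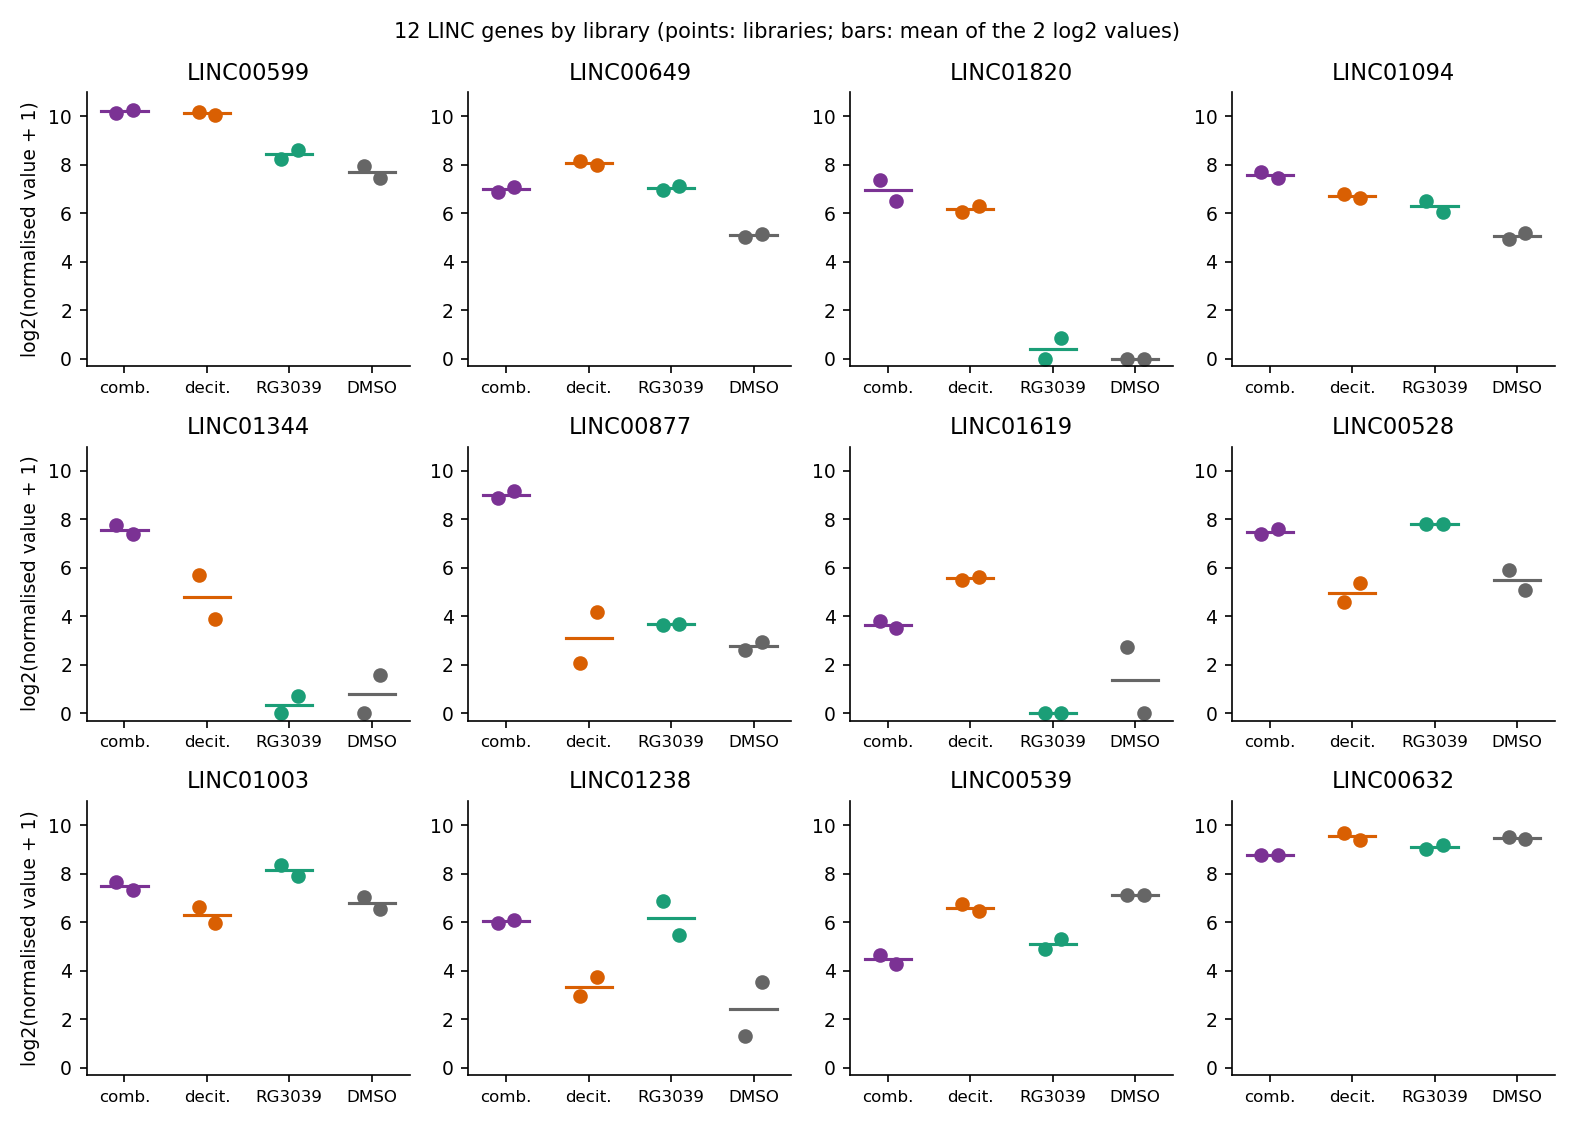
Expression of 12 LINC genes as log2(normalised value + 1) (y axis) in the combination, decitabine, RG3039 and DMSO libraries (x axis). Points are libraries and bars are means of 2 log2 values; LINC00599 and LINC01820 are high in the 4 decitabine-containing libraries, LINC00528 in the 4 given RG3039, and LINC00877 and LINC01344 are highest in the combination.

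The start regions of LINC genes held few CpG dinucleotides, the sites of DNA methylation. RefSeq promoter windows, from 250 bases before to 50 after the annotated start on GRCh38.p14, were found for 234 of the 372. They held a median of 5.5 CpG, the 26 windows of genes called with the combination held 4, and the 11086 windows of all genes tested held 25. The median ratio of observed to expected CpG was 0.321 for LINC genes, 0.298 for those called with the combination and 0.828 for all genes tested. Shown are the 5 RefSeq windows that the rule for named genes gives, of called genes in order of their change with decitabine and then with RG3039, in lower case with each CpG in capitals, read 5′ to 3′ on the gene's strand: LINC01820, LINC02645 and LINC01094 as decitabine calls, and LINC00539 and LINC01003 as calls of RG3039. The RefSeq start coincides with that of GENCODE for LINC01820, and lies 91 bases away for LINC01094, 338 for LINC01003, 3862 for LINC00539 and 54110 for LINC02645, whose window is outside the GENCODE gene. The windows are chr2:46394118-46394417 (minus strand), chr10:2501413-2501712 (minus strand), chr4:78645744-78646043 (plus strand), chr13:21344810-21345109 (minus strand) and chr7:152463874-152464173 (plus strand).
LINC01820: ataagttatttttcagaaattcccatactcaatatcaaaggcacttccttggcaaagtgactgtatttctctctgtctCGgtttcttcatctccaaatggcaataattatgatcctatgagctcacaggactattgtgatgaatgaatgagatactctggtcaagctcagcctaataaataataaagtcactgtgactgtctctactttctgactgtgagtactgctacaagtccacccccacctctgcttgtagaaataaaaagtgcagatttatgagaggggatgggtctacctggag
LINC02645: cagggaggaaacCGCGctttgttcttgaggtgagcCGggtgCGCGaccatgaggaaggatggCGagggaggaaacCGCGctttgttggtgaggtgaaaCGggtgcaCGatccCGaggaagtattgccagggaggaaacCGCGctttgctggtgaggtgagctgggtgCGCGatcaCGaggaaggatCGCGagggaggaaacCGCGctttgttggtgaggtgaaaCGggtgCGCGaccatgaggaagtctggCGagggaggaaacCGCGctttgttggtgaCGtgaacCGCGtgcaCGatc
LINC01094: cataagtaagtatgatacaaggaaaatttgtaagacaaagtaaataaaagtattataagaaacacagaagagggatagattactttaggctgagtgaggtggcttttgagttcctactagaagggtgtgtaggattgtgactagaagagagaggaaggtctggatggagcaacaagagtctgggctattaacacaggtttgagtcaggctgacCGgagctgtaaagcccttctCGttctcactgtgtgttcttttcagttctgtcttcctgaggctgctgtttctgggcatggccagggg
LINC00539: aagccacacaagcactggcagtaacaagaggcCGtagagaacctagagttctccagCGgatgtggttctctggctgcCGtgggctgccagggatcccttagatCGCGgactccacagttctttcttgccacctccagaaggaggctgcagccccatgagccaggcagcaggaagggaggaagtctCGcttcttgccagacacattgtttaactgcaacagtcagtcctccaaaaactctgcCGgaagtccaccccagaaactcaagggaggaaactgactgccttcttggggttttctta
LINC01003: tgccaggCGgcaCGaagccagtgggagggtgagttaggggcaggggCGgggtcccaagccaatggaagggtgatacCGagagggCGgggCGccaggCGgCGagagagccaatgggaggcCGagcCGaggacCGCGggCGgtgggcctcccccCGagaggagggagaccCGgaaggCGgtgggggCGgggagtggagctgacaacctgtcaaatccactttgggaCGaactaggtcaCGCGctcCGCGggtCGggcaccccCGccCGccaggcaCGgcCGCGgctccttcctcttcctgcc
They hold 1, 30, 2, 7 and 28 CpG, in the order shown. Of the decitabine calls, LINC00599 and LINC00649 had no RefSeq window here. Of the decitabine calls shown, LINC01820 and LINC01094 had few CpG. LINC02645 had many, in a window outside its GENCODE gene. Methylation was not measured in these libraries.

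LINC00528 was high in the 4 libraries given RG3039. This gene (ENSG00000269220.1, plus strand of chromosome 22, 17777322 to 17779481) lies 2552 bases from BID, a BH3-only member of the apoptosis regulators of the BCL-2 family. Its values were 167 and 192 with the combination, 22.9 and 40.5 with decitabine, 222 and 219.6 with RG3039, against 59.8 and 33.2 with DMSO. The 4 libraries given RG3039 lay above the other 4, and decitabine overlapped DMSO. It rose with RG3039 (2.28 ± 0.41, adjusted p = 0.00990) and with the combination (1.98 ± 0.41, adjusted p = 0.00757, and up to 0.0566 without a library), and decitabine gave -0.53 ± 0.41 (adjusted p = 0.532). The combination exceeded decitabine by 2.52 ± 0.41 (adjusted p = 0.00806), and decitabine lay below RG3039 (-2.81 ± 0.41, adjusted p = 0.00559). The last call held without each of the 8 libraries, and the call against DMSO was lost at adjusted p = 0.0690 without RG3039 replicate 2 and also without RG3039 replicate 1 or DMSO replicate 2, and stood at 0.0504 with only the 2 groups in the fit. BID had 1063 and 1062 with the combination, 1154 and 1204 with decitabine, 1637 and 1457 with RG3039, against 2002 and 2074 with DMSO, and it fell with the combination (-0.94 ± 0.15, adjusted p = 0.00196) and with decitabine (-0.79 ± 0.15, adjusted p = 0.0295), while RG3039 gave -0.40 ± 0.15 (adjusted p = 0.140).

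LINC00539 was the only LINC gene called lower with RG3039. This gene (ENSG00000224429.8, minus strand of chromosome 13, 21303515 to 21348721) lies 23852 bases from ZDHHC20, a protein palmitoyltransferase gene. It had 24.1 and 18.6 with the combination, 108 and 86.2 with decitabine, 28.6 and 39.3 with RG3039, against 139.9 and 138 with DMSO. All 4 libraries given RG3039 lay below the other 4. It fell with the combination (-2.66 ± 0.40, adjusted p = 0.00152) and RG3039 (-2.02 ± 0.40, adjusted p = 0.0152), and decitabine gave -0.52 ± 0.40 (adjusted p = 0.526). Against decitabine the combination gave -2.14 ± 0.40 (adjusted p = 0.0138). The call for the combination against DMSO held without each library, and that for RG3039 was lost without either library of RG3039 or DMSO, at adjusted p up to 0.0934, and with only the 2 groups in the fit (0.0603).

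LINC01004, LINC01003 and 5 further LINC genes rose with RG3039. LINC01004, which lies 1135 bases from the histone methyltransferase-family gene KMT2E, had 153 and 151 with the combination, 107 and 63.4 with decitabine, 189.5 and 222 with RG3039, against 60.5 and 54.3 with DMSO. It rose with RG3039 (1.82 ± 0.34, adjusted p = 0.0114) and with the combination (1.39 ± 0.34, adjusted p = 0.0155, and up to 0.0837 without a library). LINC01003 (ENSG00000261455.1, plus strand of chromosome 7, 152463786 to 152465549), 27781 bases from KMT2C, had 204 and 162 with the combination, 98.4 and 62.4 with decitabine, 329 and 239.5 with RG3039, against 129 and 92.1 with DMSO. RG3039 was above every other group, and decitabine overlapped DMSO. It rose with RG3039 (1.36 ± 0.34, adjusted p = 0.0422), and decitabine lay below RG3039 (-1.83 ± 0.34, adjusted p = 0.0174). LINC01238, LINC00653, LINC01011, LINC01366 and LINC01006 also rose with RG3039, with log2 fold changes of 3.76, 2.78, 2.55, 1.75 and 1.31 and adjusted p from 0.0247 to 0.0495. The larger fold changes, of LINC01238, LINC00653 and LINC01011, were of genes with a mean under 50, where the added 1 weighs more. LINC01011 overlaps NQO2 on the same strand, so its reads could belong to either gene. Each of these 7 calls was lost without at least 1 library, with adjusted p as high as 0.233 for LINC01006 without RG3039 replicate 1, and with only the 2 groups in the fit, at 0.0501 for LINC01004 up to 0.118 for LINC01006. The count of 11 was 1 without either RG3039 library, 2 without DMSO replicate 2, 6 when DMSO replicate 1 or combination replicate 2 was left out, and 7 for combination replicate 1.

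LINC00877 and LINC01344 had their highest values with the combination. LINC00877 (ENSG00000241163.8, minus strand of chromosome 3, 72035300 to 72279503) lies 92322 bases from RYBP, a gene of Polycomb repressive complexes. It had 467 and 567 with the combination, 3.20 and 17.0 with decitabine, 11.4 and 12.02 with RG3039, against 5.08 and 6.61 with DMSO. The combination stood far above the other 3 groups, among which decitabine overlapped RG3039 and DMSO. It rose against DMSO (6.24 ± 0.72, adjusted p = 0.000400), decitabine (5.89 ± 0.72, adjusted p = 0.00213) and RG3039 (5.34 ± 0.72, adjusted p = 0.00839). The calls against DMSO and decitabine held without each library, and that against RG3039 was lost without either combination library or RG3039 replicate 1, at adjusted p up to 0.112. The departure from the sum of single responses was 4.99 ± 1.01, with an unadjusted p of 0.000699 and an adjusted p of 0.557. Other annotated transcripts overlap LINC00877 on both strands.

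LINC01344 (ENSG00000228918.4, minus strand of chromosome 1, 182129310 to 182314061) lies 67598 bases from ZNF648, a zinc finger gene. It had 215 and 167 with the combination, 51.1 and 13.7 with decitabine, 0 and 0.623 with RG3039, against 0 and 1.97 with DMSO. The combination lay above decitabine without overlap (2.79 ± 0.97, adjusted p = 0.117), and RG3039 and DMSO lay at or near 0. The calls against DMSO (adjusted p = 0.00117) and against RG3039 (adjusted p = 0.00839) in limma were set against libraries at 1.97 or below, so no fold is given. Decitabine alone exceeded RG3039 at adjusted p = 0.0325 and gave adjusted p = 0.0698 against DMSO. The call for the combination against DMSO held without each library, and that against RG3039 was lost at adjusted p = 0.130 without combination replicate 1.

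Further LINC genes rose with the combination from low values. LINC02777 had 29.4 and 24.98 with the combination, 0 and 8.22 with decitabine, 12.6 and 14.2 with RG3039, against 0 in both DMSO libraries (adjusted p = 0.0208 against DMSO). LINC01132 had 10.8 and 21.8 with the combination, 16.2 and 21.8 with decitabine, 4.03 and 7.96 with RG3039, against 0 in both DMSO libraries (adjusted p = 0.0160). LINC01748, LINC02218 and LINC02158 rose by 3.66 ± 1.01, 3.18 ± 0.83 and 2.64 ± 0.73, at adjusted p = 0.0275, 0.0208 and 0.0266 in limma. LINC01238 (3.61 ± 0.83, adjusted p = 0.0121) and LINC01011 (3.23 ± 0.60, adjusted p = 0.00444), both also called with RG3039, rose as well. Each of these 7 calls was lost without at least 1 library, always including a library of the combination, at adjusted p up to 0.170 for LINC01748 without combination replicate 1.

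Several LINC genes with higher values also rose with the combination. LINC02142, LINC01602 and LINC00685, with means of 658, 558 and 475, were called, and these calls were lost without either combination library. Also called were LINC01551, LINC01215 and LINC00958, with means of 1413, 518 and 277. LINC01551 had 1769 and 1655 with the combination, 1602 and 1266 with decitabine, 1265 and 1487 with RG3039, against 1230 and 1033 with DMSO. It rose by 0.60 ± 0.18 (adjusted p = 0.0385). LINC01215 had 733 and 704 with the combination, 553 and 444 with decitabine, 507 and 507 with RG3039, against 424 and 276 with DMSO, and rose by 1.07 ± 0.24 (adjusted p = 0.0104). LINC00958, described as an oncogenic transcript of bladder cancer, had 465 and 430.3 with the combination, 417 and 381 with decitabine, 143 and 110.1 with RG3039, against 220.4 and 48.1 with DMSO. It rose by 2.10 ± 0.55 (adjusted p = 0.0223), with DMSO libraries that enclosed both RG3039 libraries. These 3 calls were lost without either combination library, at adjusted p up to 0.182, 0.0677 and 0.109 without replicate 1.

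The 6 LINC genes that fell with the combination were LINC00539, LINC01504, LINC01128, LINC01145, LINC00632 and LINC00869. LINC00632, the locus from which the circular RNA CDR1as is made, had 440.1 and 441 with the combination, 825 and 676 with decitabine, 514.5 and 582 with RG3039, against 736 and 683 with DMSO. These libraries of polyadenylated RNA counted its linear transcript. The combination was below every other library, and it fell against DMSO (-0.69 ± 0.19, adjusted p = 0.0260) and against decitabine (-0.76 ± 0.19, adjusted p = 0.0404). LINC01128 fell too (-1.18 ± 0.33, adjusted p = 0.0289), with 86.8 and 145 with the combination, 208 and 155.5 with decitabine, 243.5 and 172 with RG3039, against 273 and 240.4 with DMSO. LINC01504 (-3.54 ± 1.14, adjusted p = 0.0495), LINC01145 (-1.11 ± 0.35, adjusted p = 0.0480) and LINC00869 (-0.62 ± 0.19, adjusted p = 0.0441) were near the threshold. Apart from LINC00539, all 5 lost their call without at least 1 library, at adjusted p up to 0.306 for LINC01145 without combination replicate 1. LINC01145 and LINC00869 lie in the duplicated region of chromosome 1q, where reads can be split between near-identical copies.

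**Figure D4:**
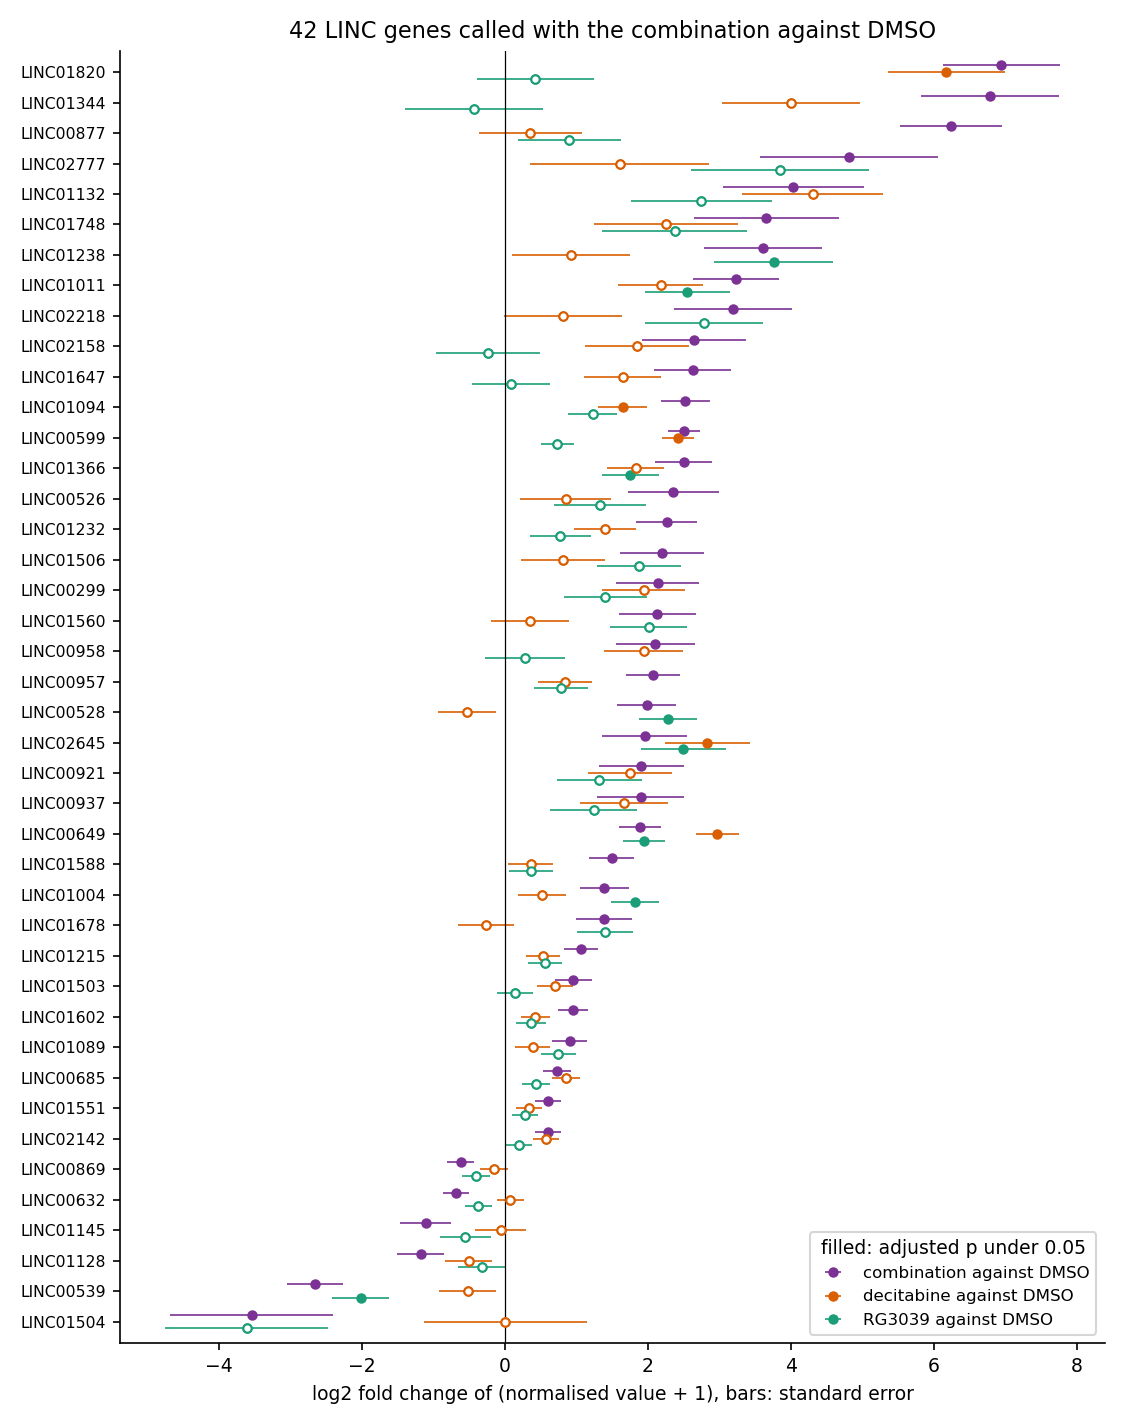
The 42 LINC genes called with the combination against DMSO, by log2 fold change of (normalised value + 1) against DMSO (x axis), for the combination (purple), decitabine (orange) and RG3039 (green); bars are standard errors and filled points have adjusted p under 0.05. Of the 42, 36 lie to the right of 0 for the combination and 6 to the left. LINC01820, LINC02777 and LINC01132 were at 0 in DMSO and LINC01344 at or near 0, so their positions depend on the added 1.

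Against decitabine 6 LINC genes were called with the combination, 3 higher and 3 lower, while 7.33% of all genes were called (3.94% higher, 3.39% lower). After quantile normalisation the split was 7 higher and 4 lower. Besides LINC00877, LINC00528, LINC00539 and LINC00632 these were LINC01678 and LINC00665. LINC01678, which overlaps GATD3A on the opposite strand, had 92.4 and 162 with the combination and 35.1 and 41.6 with decitabine (1.65 ± 0.39, adjusted p = 0.0346). LINC00665, reported to encode a micropeptide in breast cancer cells, had 306 and 307 with the combination and 547.5 and 610.2 with decitabine (-0.91 ± 0.20, adjusted p = 0.0263). The calls of LINC01678 and LINC00665 were lost without either library of the combination or decitabine, at adjusted p up to 0.224 and 0.138, and that of LINC01678 also without either library of RG3039. That of LINC00877 held without each library. Those of LINC00528 and LINC00539 were lost at adjusted p up to 0.0729 and 0.0907, both without combination replicate 2, and that of LINC00632 at 0.198 without decitabine replicate 1. Leaving out 1 library gave 1 to 11 calls, the fewest without combination replicate 1 or decitabine replicate 1.

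Against RG3039 the combination had 5 called LINC genes, all higher, and 2.28% of all genes were called (1.49% higher, 0.787% lower). They were LINC01344, LINC01820, LINC00877, LINC00599 and LINC01647. LINC00599 exceeded RG3039 by 1.77 ± 0.23 (adjusted p = 0.00712). LINC01647 had 117 and 192 with the combination, 74.2 and 76.9 with decitabine, 14.8 and 41.4 with RG3039, against 27.997 and 19.6 with DMSO (2.54 ± 0.54 against RG3039, adjusted p = 0.0463). All 5 calls were lost when either library of the combination was left out, at adjusted p of 0.130 for LINC01344, 0.121 for LINC01820, 0.112 for LINC00877 and 0.0972 for LINC00599 without the combination's replicate 1. When RG3039 replicate 1 was left out, LINC01820 alone remained called, and LINC01647 had an adjusted p of 0.260.

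Decitabine and RG3039 differed in 7 LINC genes, 4 higher and 3 lower with decitabine, and 4.60% of all genes were called (2.67% higher, 1.92% lower). After quantile normalisation the split was 5 higher and 6 lower. Higher with decitabine were LINC01820, LINC01344, LINC00599 and LINC01619, and lower were LINC00528, LINC01003 and LINC01678 (-1.66 ± 0.39, adjusted p = 0.0445). LINC01619 (ENSG00000257242.8, minus strand of chromosome 12, 91984976 to 92142914) overlaps BTG1, an antiproliferative gene, on the same strand. It was listed at 12.8 and 10.4 with the combination, 44.7 and 48.7 with decitabine, 0 in both RG3039 libraries, and 5.60 and 0 with DMSO. The 4 libraries given decitabine were above the other 4, and the difference of decitabine from RG3039 had an adjusted p of 0.0275, lost without any library of the 3 treated groups. BTG1 had 13757 and 14124 with the combination, 7729 and 9722 with decitabine, 9410 and 10256 with RG3039, against 5030 and 4740 with DMSO, an order that differs from that of LINC01619. Leaving out 1 library gave 2 to 8 calls, the fewest without decitabine replicate 2. The calls of LINC00599 and LINC00528 held without each library, and each of the other 5 was lost without at least 1, at adjusted p up to 0.217 for LINC01344 without decitabine replicate 1.

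No LINC gene departed from the sum of the single responses at an adjusted p under 0.05, nor did any other gene (0.00% of all genes tested). Of the 372, 15 had an unadjusted p under 0.05, as had 1014 of all genes. The median standard error of this term over LINC genes was 0.84. Every alternative run also gave 0 called LINC genes.

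Along principal components over the 372 LINC genes the treatments took an order. On the first component (29.8% of the variance) the combination lay at 15.8 and 9.21, decitabine at 2.998 and 3.47, RG3039 at -4.25 and -3.63, and DMSO at -10.7 and -12.9. On the second (19.9%) decitabine lay at -14.1 and -5.07 and RG3039 at 12.1 and 6.37. Across LINC genes libraries of 1 group correlated at 0.801 to 0.849 and libraries of different groups at 0.682 to 0.8435, so the ranges overlapped.

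Markers of maturing myeloid cells also differed between the treatments. The summed value of 7 mature phagocyte genes was 81390 and 97134 with the combination, 30318 and 32754 with decitabine, 59654 and 61589 with RG3039, against 21046 and 27905 with DMSO. S100A8 and S100A9, subunits of calprotectin, made up most of this sum. ITGAM, the CD11b integrin gene of the same list, had another order, with 119 and 139 with the combination, 162 and 219.8 with decitabine, 57.3 and 68.7 with RG3039, against 85.8 and 108 with DMSO. The summed value of 4 eosinophil genes was 93993 and 101817 with the combination, 79719 and 98426 with decitabine, 50731 and 54881 with RG3039, against 25916 and 32542 with DMSO. PRG2 made up most of this sum. CLC had 890 and 1146 with the combination and 1443 and 1542 with decitabine, and EPX had 2108 and 2707 and then 2836 and 3742. RNASE2 went the other way, with 25523 and 30569 with the combination and 11644 and 15321 with decitabine. The 10 genes that mark HL-60 were at 377 or more in every library, and summed to 97831 and 108966 with the combination, 172955 and 213443 with decitabine, 115949 and 131502 with RG3039, against 178386 and 215360 with DMSO. Most of that sum was MPO, the myeloperoxidase gene. CEBPE, a granulocyte factor gene on the same list, had 6514 and 7476 with the combination, 4731 and 5676 with decitabine, 4075 and 5147 with RG3039, against 2368 and 2700.4 with DMSO. Of the markers of other cell types, MS4A1, HBB and KRT19 were at 0 in all libraries, and 5 lymphoid genes summed to 249 and 360 with the combination, 128 and 180 with decitabine, 34.9 and 107 with RG3039, against 46.9 and 30.2 with DMSO. The part of these in the LINC values was not tested. Fewer cells that carry an RNA and less of it per cell cannot be told apart in bulk libraries.

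Nearby protein-coding genes were compared with the LINC genes. There were 191 LINC genes with a tested protein-coding gene as nearest neighbour within 100000 bases, with 187 distinct neighbours. Across these pairs the log2 fold changes correlated at r = 0.18 for the combination, 0.12 for decitabine and 0.09 for RG3039, as a description over genes that share libraries. Of 25 called LINC genes with such a neighbour in the combination, 4 had a neighbour called in the same direction and 3 in the other. Of the 166 pairs with an uncalled LINC gene, 55 neighbours were called. Of all tested genes that are protein coding in GENCODE 29, 28.6% were called with the combination. With decitabine 3 called LINC genes had such a neighbour and with RG3039 7 had, and none of these neighbours was called. Among pairs with an uncalled LINC gene, 8 of 188 neighbours were called with decitabine and 17 of 184 with RG3039. Of all tested protein-coding genes 2.52% and 9.35% were called. With shares this low, 3 and 7 pairs are too few to tell whether neighbours differ from other genes. Differences between these shares were not tested. JUN, a subunit of the transcription factor AP-1 and 98541 bases from LINC02777, had 1030 and 965 with the combination, 403 and 430.2 with decitabine, 617 and 670.1 with RG3039, against 356 and 229 with DMSO (1.80 ± 0.23 for the combination, adjusted p = 0.000698). ZNF648, next to LINC01344, had 22.5 and 16.1 with the combination, 24.3 and 19.7 with decitabine, 0 and 3.18 with RG3039, against 0 in both DMSO libraries (adjusted p = 0.0228 for the combination). RYBP rose by 0.51 ± 0.16 with the combination (adjusted p = 0.0468). SAMD11, near LINC01128, went the other way from it, at 3.07 ± 0.67 (adjusted p = 0.00954). BID also fell with the combination while LINC00528 rose, as given above.

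A list of 68 LINC genes with a described role in the literature held 40 of the 372. Against DMSO the combination gave 7 higher and 3 lower, RG3039 2 higher and 1 lower, and decitabine 1 higher. These are 25%, 7.5% and 2.5% of the 40, near the 24.1%, 8.12% and 2.14% of all genes tested. The median log2 fold change over the 40 was 0.32 with the combination, 0.19 with decitabine and 0.14 with RG3039. Those higher with the combination were LINC01132, LINC00526, LINC00649, LINC01588, LINC01215, LINC01503 and LINC01089. LINC01089, described as a suppressor of breast cancer metastasis, had 287 and 259 with the combination, 196 and 184 with decitabine, 229 and 261 with RG3039, against 157 and 134 with DMSO (0.90 ± 0.24, adjusted p = 0.0238). LINC01503, described in squamous cell carcinoma, had 305.5 and 286 with the combination, 269 and 226 with decitabine, 159 and 175 with RG3039, against 173 and 133 with DMSO (0.96 ± 0.25, adjusted p = 0.0229). LINC01588 rose by 1.49 ± 0.31 (adjusted p = 0.00790). Of these 7 calls that of LINC00649 held without each library, and the others were lost without at least 1, at adjusted p up to 0.146 for LINC00526 and 0.138 for LINC01089 without combination replicate 1.

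Other long non-coding RNA names gave shares of calls on both sides of those over all genes. Of 406 tested genes with an antisense name the combination gave 40 higher and 20 lower (14.8%), of 68 with a divergent name 12 higher and 1 lower (19.1%), and of 51 microRNA or snoRNA host genes 8 higher and 13 lower (41.2%), against 11.3% of LINC genes and 24.1% of all genes tested. No test of these differences between name classes was made. Of 39 tested genes on a list of other well-known long non-coding RNAs, 11 were called with the combination (28.2%, beside 24.1% of all genes): MIR4435-2HG, CYTOR, OIP5-AS1, TUG1, HCP5, WT1-AS, LUCAT1 and IRAIN higher, and ZFAS1, MIR17HG and DLEU2 lower. Calls on this list were not checked without each library. WT1-AS spread widely, at 2459 and 400 with the combination, 2392 and 622 with decitabine, 1585 and 54.3 with RG3039, against 36.7 and 38.8 with DMSO. RG3039 gave 6 calls on that list (15.4%, beside 8.12% of all genes). Decitabine alone gave no call on that list in limma, with 9 of 39 at an unadjusted p under 0.05, beside 3130 of all 17534 genes tested.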

How the data were processed

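RNA was measured in 8 libraries of polyadenylated RNA (4 groups of 2) with the QuantSeq 3′ FWD kit, per the labels. The deposited file gives 1 signal per gene and library, a normalised read count, for 60240 genes. The submitters' processing notes name Salmon 1.2.1, STAR, featureCounts, DESeq2, limma and hg38 without the order of steps. The median of the ratios to each gene's geometric mean was 1.01 in every library. Low values were whole multiples of 1 read for only 33.3% to 45.0% of LINC values (up to 20.5 reads, tolerance 0.02), so no count test was run.

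Genes with a mean of at least 10 (17534) were taken as log2(value + 1), and group means were estimated in 1 model in limma (version 3.58.1; R 4.3.3) with trended eBayes, 4 residual and 5.51 prior degrees of freedom. For each of 7 contrasts, two-sided p-values were adjusted over all of these genes, and adjusted p under 0.05 was a call. Alternatives were pseudocounts of 0.5 and 4, TMM factors, quantile normalisation, no filter, a mean of at least 50, eBayes without trend or robust, a replicate block, only the groups compared, and leaving out each library. The script was tested on simulated data.

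The LINC genes and lists were chosen with earlier results of these data known. Named genes were called genes whose groups do not overlap (up to 10 with the largest change in each direction against DMSO and up to 6 elsewhere), with the highest, edge and listed genes and nearest neighbours; LINC00958 was named after its values were seen. Coordinates and transcripts came from GENCODE 29, promoters from RefSeq, and tables and plots from Python 3.11.15 with pandas 2.3.3, numpy 2.4.6 and matplotlib 3.10.9.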

Additional observations from a re-analysis of the deposited data

How the results depend on the processing

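The count of LINC genes called against DMSO with decitabine was 5, and 3 after quantile normalisation, with no filter, with a mean of at least 50 and with only the groups compared. For RG3039 it was 11, and 6 after quantile normalisation, 4 with no filter, 7 with a mean of at least 50 and 0 with only the groups compared. For the combination it was 42, and 27 with only the groups compared. Against decitabine the combination gave 6, and 11 after quantile normalisation, and decitabine against RG3039 gave 7, and 11 after quantile normalisation and 4 with a mean of at least 50. The interaction with only the groups compared is the fit itself and was not run again. Leaving out each library in turn gave 2 to 4 calls for decitabine, 1 to 12 for RG3039, 14 to 39 for the combination, 1 to 11 for the combination against decitabine, 0 to 5 against RG3039, 2 to 8 for decitabine against RG3039 and 0 to 0 for the interaction. For the combination the count was 14 without combination replicate 1, 17 without combination replicate 2 and 21 without DMSO replicate 2. For decitabine it was 2 without either decitabine library and 3 without DMSO replicate 2 or any library of RG3039 or the combination. A fit without a library leaves that group with 1, which is assumed to vary like the others. Of 50 named calls, 10 held without each library, 9 under all alternatives, and none changed sign. Deviations of same-numbered libraries correlated at -0.0767 to 0.161, which cannot settle whether replicate numbers pair the samples. With the replicate block the counts were 6, 12, 44, 9, 5, 7 and 0 in the order above. The cause of these changes was not tested. Depth limits the low genes most, since 1 read was worth up to 1.51.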
